A study of Mus musculus with 2 samples.

Results

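The genes of glycolysis and glucose use were described here in C2C12, an established line of mouse myoblasts, which are muscle precursor cells that can fuse into muscle fibres. The 37 genes were picked by name as members of the textbook pathway, with earlier results of these data known. They span glucose uptake, the steps from hexokinase to lactate, lactate transport, the control of pyruvate dehydrogenase, glycogen, and the regulator Hif1a. All 37 were found among the 20128 gene symbols of the table, with 52 of its 24165 RefSeq entries. The study made 2 replicate GRO-seq libraries of untreated myoblasts. In global run-on sequencing, engaged polymerases extend their RNA in isolated nuclei, and the labelled nascent RNA is sequenced. The cells were grown to 80% confluency in high glucose medium with serum, no treatment was applied, and no other cell type or condition was compared. C2C12 is a single immortal line, so the values stand for these cultured cells only. The authors pooled the 2 libraries and gave each RefSeq entry a single gene activity in RPKmM, that is, reads on the sense strand of the gene body per kilobase of mappable bases, scaled to the total of reads, or the word Inactive. The gene body starts 1 kb after the transcript start. With a single pooled value no spread between replicates could be computed and no test was possible. The table gives no read counts. The ranges printed below beside ratios come from rounding to 2 decimals alone, and cover neither counting error nor the variation between libraries.

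Glycolysis splits glucose into pyruvate, which is turned into lactate or enters the mitochondria through pyruvate dehydrogenase. Several steps are run by isozymes, enzymes of the same reaction made from different genes, and skeletal muscle fibres replace many of the general forms by forms of their own. Proliferating cells are known for high glycolysis with release of lactate. GRO-seq measures transcription and not messenger RNA or enzyme, and because activity is a density per length, the levels of different genes can be set side by side.

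Enolase and phosphoglycerate mutase are neighbouring steps where the general and the muscle form stood in opposite order, so the promoter windows of these 4 genes are shown. Each window holds 250 bases before and 50 after the annotated start, taken from RefSeq on GRCm38.p6, and each matched its mm9 chromosome exactly at a single place. The mm9 positions are chr4:149610567-149610866 on the plus strand for Eno1, chr11:70470428-70470727 on the plus strand for Eno3, chr19:41986111-41986410 on the plus strand for Pgam1 and chr11:5703750-5704049 on the minus strand for Pgam2. Capitals mark E-boxes, CANNTG, the motif bound by MyoD and other factors of its family, and GC boxes, GGGCGG on either strand, the motif bound by Sp factors.
Eno1 (general enolase): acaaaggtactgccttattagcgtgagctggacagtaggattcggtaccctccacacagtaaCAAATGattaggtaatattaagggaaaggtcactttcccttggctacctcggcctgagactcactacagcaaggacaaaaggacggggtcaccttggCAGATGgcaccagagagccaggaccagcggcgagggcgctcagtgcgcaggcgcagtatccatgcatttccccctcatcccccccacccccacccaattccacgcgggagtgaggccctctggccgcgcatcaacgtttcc
Eno3 (muscle enolase): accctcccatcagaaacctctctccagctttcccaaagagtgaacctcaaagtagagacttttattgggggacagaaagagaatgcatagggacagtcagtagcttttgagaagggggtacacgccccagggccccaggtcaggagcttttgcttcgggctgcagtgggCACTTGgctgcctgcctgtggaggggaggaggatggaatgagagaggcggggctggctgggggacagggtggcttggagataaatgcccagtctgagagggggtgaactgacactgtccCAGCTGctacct
Pgam1 (general mutase): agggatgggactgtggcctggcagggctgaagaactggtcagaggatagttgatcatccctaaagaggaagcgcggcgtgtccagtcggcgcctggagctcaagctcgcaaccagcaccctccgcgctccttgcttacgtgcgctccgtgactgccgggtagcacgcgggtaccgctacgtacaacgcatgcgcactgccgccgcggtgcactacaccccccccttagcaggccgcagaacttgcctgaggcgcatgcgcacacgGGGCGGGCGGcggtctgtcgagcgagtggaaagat
Pgam2 (muscle mutase): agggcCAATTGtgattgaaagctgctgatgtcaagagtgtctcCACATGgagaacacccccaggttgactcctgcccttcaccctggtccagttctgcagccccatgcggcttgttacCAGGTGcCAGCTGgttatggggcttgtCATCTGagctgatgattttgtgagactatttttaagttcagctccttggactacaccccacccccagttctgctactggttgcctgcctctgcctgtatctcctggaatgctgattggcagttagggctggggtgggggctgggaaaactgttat
The Pgam2 window holds 5 E-boxes and 1 CpG, against no E-box and 30 CpG for Pgam1. The Eno3 window holds 2 E-boxes and 3 CpG, and that of Eno1 2 E-boxes and 14 CpG. Eno1 has 3 listed windows, and the one shown lies nearest to the gene start of the GENCODE annotation. The other two Eno1 windows hold no E-box and 3 GC boxes each.

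All 37 members were active. By the authors' call this means a read density significantly above the average of gene deserts in a Poisson comparison. The call sets no lowest level, and 118 active genes of the table had a value of 0 after rounding. Over the whole table, 68.7% of gene symbols had at least 1 active entry. All 52 entries of the members were active too, beside 70.2% of all entries. Taking the highest entry of each gene, the members had a median activity of 1.42 RPKmM with quartiles of 0.5 and 3.97, beside a median of 0.87 and quartiles of 0.22 and 2 over the 13822 active genes. An activity of at least 1 was found for 23 members, beside 46.1% of active genes. At least 5 was reached by 9 members, beside 7.83% of active genes, and at least 10 by 3 members, beside 2.9%. Only 3 members lay below 0.1, where 18.9% of active genes lay. The members thus covered a wide range, from 0.03 for Slc2a3 to 20.06 for Eno3, with 15 members above the upper quartile of all active genes and 4 below the lower.

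**Figure D1:**
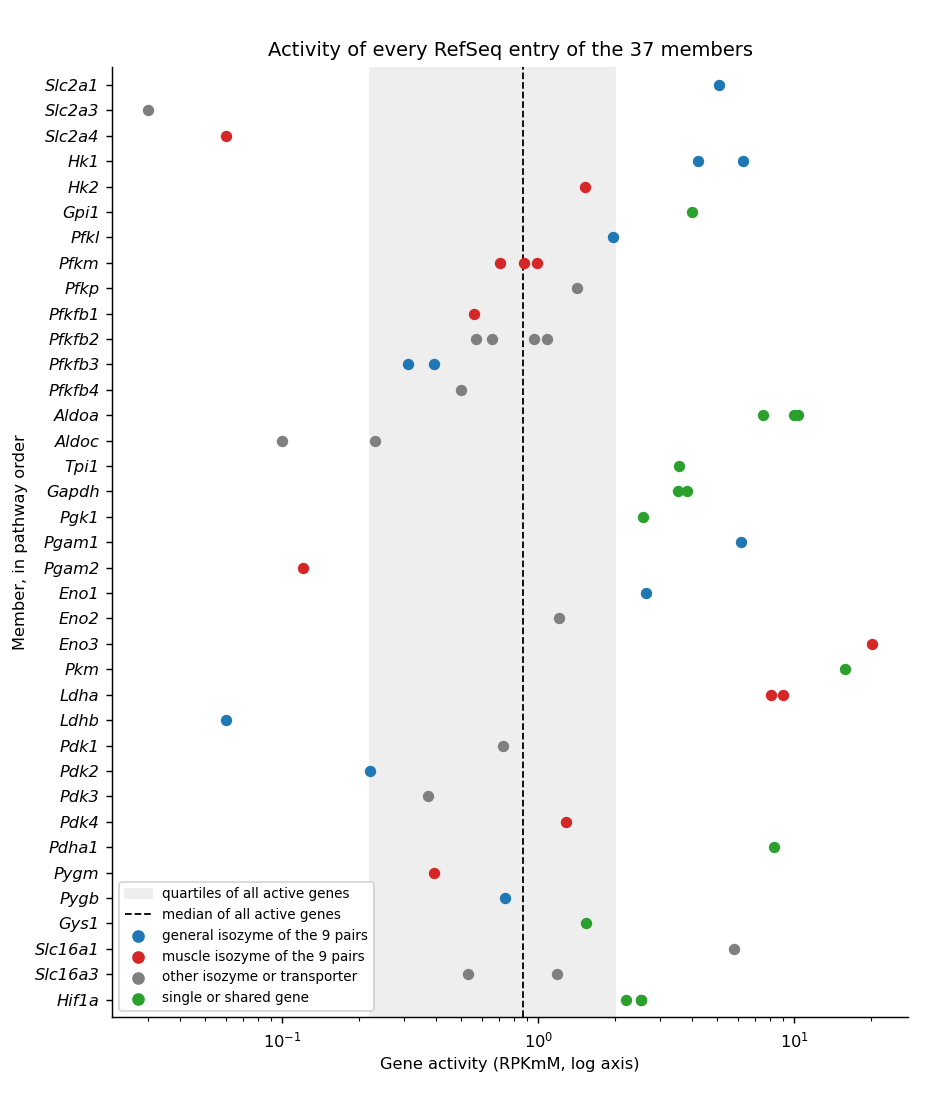
Gene activity of each RefSeq entry (points, RPKmM on a log axis) for the 37 members in pathway order, coloured by kind of isozyme, with the median of all active genes at 0.87 (dashed line) and their quartiles at 0.22 and 2 (grey). The highest point is Eno3 at 20.06 and the lowest Slc2a3 at 0.03, and entries of the same gene lie close together except for a few such as Aldoc and Slc16a3.

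A group of 9 members stood outside the pairs of general and muscle isozymes, because the step has a single gene here or the gene serves both muscle and other tissues. Their median was 3.81 RPKmM, all 9 lay above the median of active genes, and 8 lay above the upper quartile. Pkm, pyruvate kinase of muscle and proliferating cells, on the plus strand of chromosome 9 (mm9 59504383 to 59527182), led with 15.76. Its activity was above that of 98.4% of active genes. The splice forms of Pkm share a gene body and a single entry, so they cannot be told apart by this measure. Aldoa, the aldolase of muscle and most other tissues, on the minus strand of chromosome 7 (133938748 to 133944265), had 10.31, 10.01 and 7.55 in its 3 entries. Pdha1, the E1 alpha subunit of pyruvate dehydrogenase, followed with 8.32. Gpi1, glucose phosphate isomerase, had 3.97, Gapdh 3.81 and 3.52 in its 2 entries, and Tpi1, triosephosphate isomerase, 3.54. Pgk1, phosphoglycerate kinase, had 2.57 and Hif1a, the oxygen-regulated factor that activates many genes of this pathway, had 2.52, 2.52 and 2.19. Gys1, glycogen synthase of muscle and most other tissues, was lowest of these with 1.53. Gapdh, Gpi1 and Tpi1 were thus close to each other and lay between 3.54 and 3.97 by their highest entries. Gapdh, often taken as a reference gene, was below Pkm by a ratio of 4.14 (4.13 to 4.14 from rounding).

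Where a step has a general and a muscle isozyme, 6 pairs were compared first, and the general form was higher in 5 of 6. The general forms had a median of 3.86 RPKmM, from 0.74 to 6.31, and the muscle forms had a median of 0.69, from 0.06 to 20.06. On the log2(activity + 0.01) scale, general minus muscle had a median of 1.51 over the 6 pairs. The groups overlapped. Eno3 lay above every general form, and Hk2 and Pfkm lay above Pygb, the lowest general form.

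At glucose uptake the gap was wide. Slc2a1, the glucose transporter of most cells, had 5.08 RPKmM and Slc2a4, the insulin-responsive transporter of muscle and fat, had 0.06, a ratio of 84.7 (78.1 to 92.5). Slc2a3, a high-affinity transporter best known from neurons, was lower still at 0.03, the lowest of all members. Slc2a1 held 98.3% of the summed activity of these 3 transporters. Slc2a4 and Slc2a3 lay above 15.5% and 10.6% of active genes, so they were active by call and low by level.

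At the mutase step the order was the same and the gap nearly as wide. Pgam1 had 6.19 and Pgam2, the form of muscle, had 0.12, a ratio of 51.6 (49.5 to 53.9). Pgam2 is a short gene of 2094 bases on chromosome 11 (mm9 5701643 to 5703736, minus strand), so that little more than 1 kb of it is counted.

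Hexokinase, phosphofructokinase and glycogen phosphorylase differed less. Hk1, the hexokinase of most tissues, had 6.31 and 4.2 in its 2 entries and Hk2, the main form of skeletal muscle, had 1.52, a ratio of 4.15 from the highest entry. Pfkl, the liver type that many tissues share, had 1.95 against 0.99 for the highest entry of Pfkm, the muscle type, a ratio of 1.97. The other entries of Pfkm had 0.88 and 0.71. Pfkp, the platelet type, lay between them at 1.42. The general, platelet and muscle forms thus held 44.7%, 32.6% and 22.7% of the summed activity of this step. Pygb, the brain type of glycogen phosphorylase, had 0.74 and Pygm, the muscle type, had 0.39, a ratio of 1.9.

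Enolase ran the other way. Eno3, the muscle enolase, had 20.06 RPKmM (NM_001136062), Eno1, the form of most tissues, had 2.64, and Eno2, the neuronal form, had 1.2. Eno3 was higher than Eno1 by a ratio of 7.6 (7.58 to 7.61) and held 83.9% of the summed activity of the 3 enolase genes. It was the most active of the 37 members, ranked 172 of 13822 active genes, and lay above Gapdh by a ratio of 5.26. The gene lies on chromosome 11 of mm9 from 70470704 to 70476015 on the plus strand, and 29.3% of its gene body is annotated exon. The nearest upstream gene on its strand is Rnf167, 5781 bases away, with an activity of 0.8. No near copy of the Eno3 transcript was found elsewhere in the genome.

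**Figure D2:**
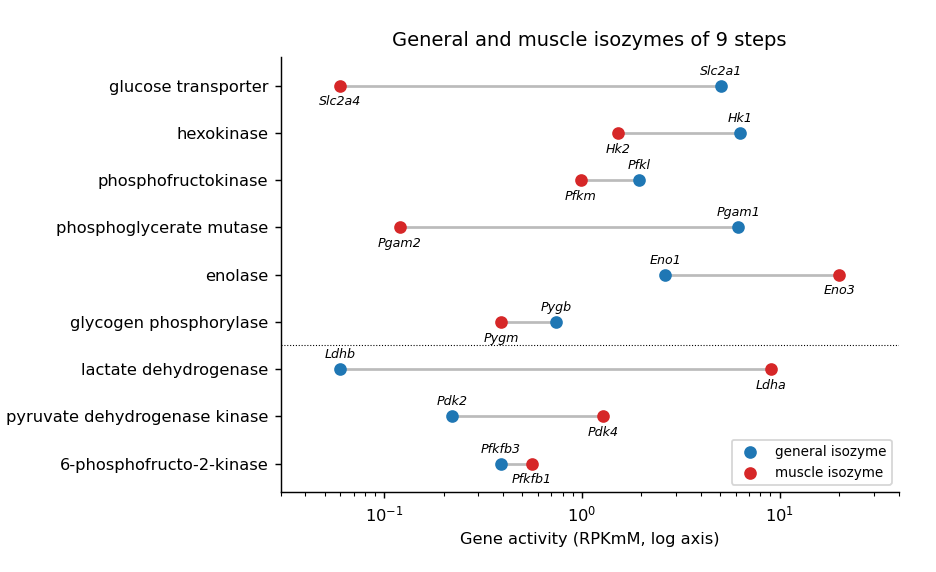
Gene activity (RPKmM on a log axis, highest entry) of the general and the muscle isozyme of 9 steps, 6 pairs above the dotted line and 3 wider pairs below. The general form is to the right in 5 of the upper 6 pairs, with Eno3 at 20.06 against Eno1 at 2.64 as the exception, and the muscle form is to the right in the lower 3.

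The 3 wider pairs, in which the division into muscle and general is looser, had the muscle form higher, so that over 9 pairs the general form led in 5 and the muscle form in 4. Over the 9 pairs the medians were closer, at 1.95 for the general and 0.99 for the muscle forms, and the median log2 difference was 0.91 in place of 1.51. Ldha, the M subunit of lactate dehydrogenase, which favours lactate, lies on chromosome 7 (54096845 to 54110997, plus strand) and had 9.02 and 8.09 in its 2 entries. Ldhb, the H subunit of heart, had 0.06. The ratio of 150 (139 to 164) was the widest of the 9 pairs. Ldha is also known from many proliferating cells, so its label as a muscle form is partial.

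The kinases that switch off pyruvate dehydrogenase were all of low or middle activity. Pdk4, which muscle and heart induce in fasting, had 1.28, Pdk1 0.73, Pdk3 0.37 and Pdk2, the widely found form, 0.22. Pdk4 was higher than Pdk2 by a ratio of 5.82 (5.67 to 5.98) and held 49.2% of the sum of the 4 kinases. Their target subunit Pdha1 lay above each of them.

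The bifunctional Pfkfb enzymes make and remove the activator of phosphofructokinase. Pfkfb2, the heart type, had 1.08, 0.96, 0.66 and 0.57 in its 4 entries, Pfkfb1, of liver and skeletal muscle, had 0.56, Pfkfb4 had 0.5, and Pfkfb3, the inducible form, had 0.39 and 0.31. No gene of this family dominated, and Pfkfb1 was above Pfkfb3 by a ratio of 1.44 only.

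**Figure D3:**
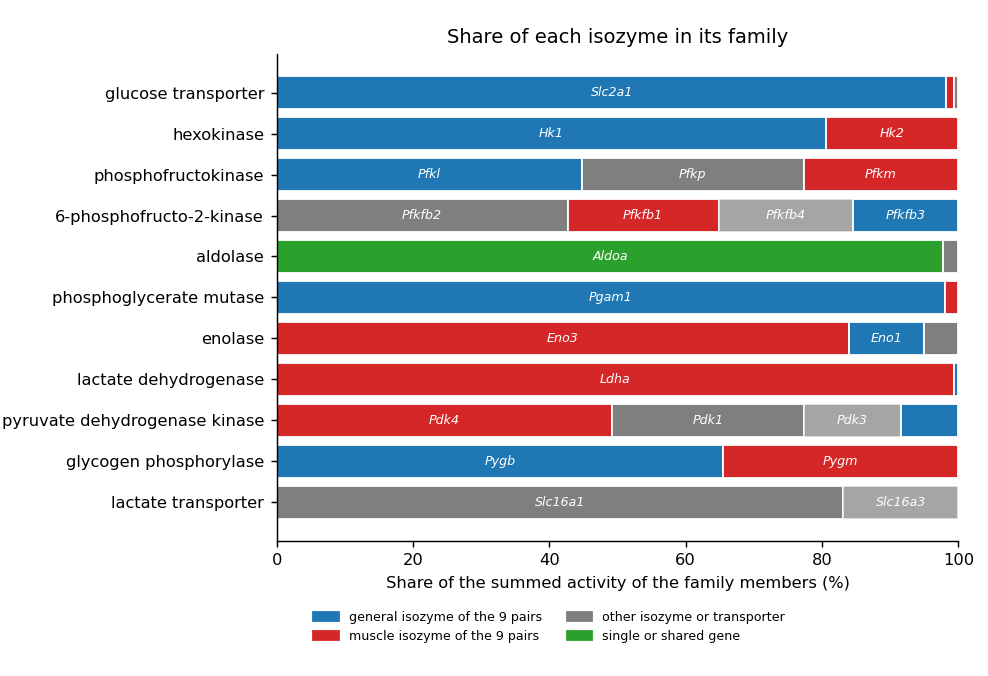
Share of each gene (percent) in the summed activity of the members of its family, for the 11 families with several members, ordered within a bar from the highest. A single gene holds over 75% in 7 of the 11 families, as Slc2a1 with 98.3% and Eno3 with 83.9%, while the Pfkfb genes and phosphofructokinases are spread.

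Lactate leaves or enters cells through monocarboxylate transporters. Slc16a1, which encodes the widely found transporter MCT1, had 5.82, and Slc16a3, which encodes MCT4 of glycolytic tissues such as fast muscle, had 1.18 and 0.53 in its 2 entries. The ratio from the highest entries was 4.93 (4.91 to 4.96).

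Among the aldolases, Aldoc, the form of brain, had 0.23 and 0.1, against 10.31 for Aldoa, a ratio of 44.8. Spag5, on the same strand and ending 511 bases upstream of Aldoc, had 6.47. Similar neighbours on the same strand were Ncapd2, 1542 bases upstream of Gapdh, with 11.81, and Usp5, 723 bases upstream of Tpi1, with 2.76. Itga3, 3120 bases upstream of Pdk2, had 2.87, and Parp6, 6297 bases upstream of Pkm, had 1.8. Sf1, 6369 bases upstream of Pygm, had 9.98, beside the 0.39 of Pygm itself. Transcription past the end of an upstream gene would be counted in the gene that follows, and its part in the activity of Aldoc, Gapdh, Tpi1, Pdk2, Pkm and Pygm was not tested.

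**Figure D4:**
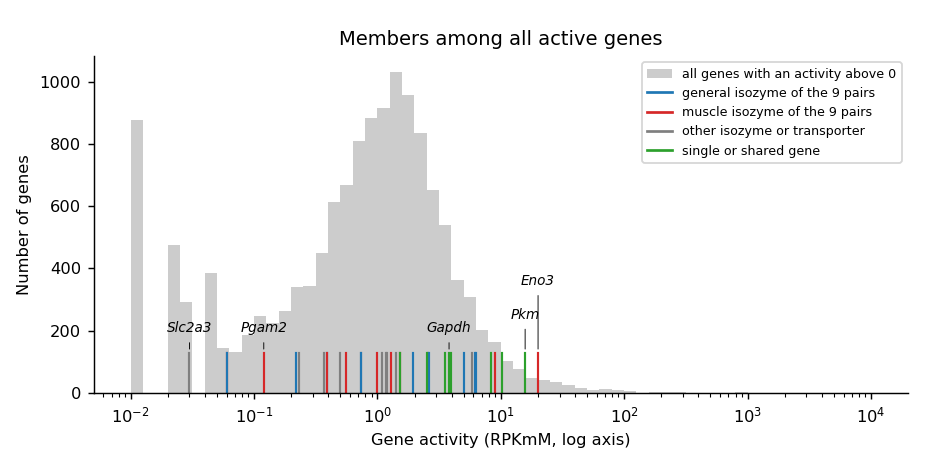
Number of genes by activity (RPKmM, log axis) for all genes with an activity above 0 (grey) and the position of each of the 37 members (coloured lines). The members reach from 0.03 (Slc2a3) to 20.06 (Eno3), and the gaps between bars at the left come from rounding to 2 decimals.

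Entries of a gene differ in their start or end and overlap otherwise. Of the 10 members with several active entries, the highest was at least 1.5 times the lowest in 4, namely Hk1, Pfkfb2, Aldoc and Slc16a3, beside 22.1% of all genes with several active entries above 0. The widest spread was that of Aldoc at 2.3 times, followed by Slc16a3 at 2.23 times. The genes Aldoa, Ldha, Gapdh, Hif1a, Pfkm and Pfkfb3 stayed within 1.39 times.

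Housekeeping enzymes of glycolysis have many processed copies in the mouse genome, and reads that fit several places were not counted by the authors. When the longest coding transcript of each member was aligned to mm9, 30 of 37 had no copy elsewhere of at least 300 bases and 95% identity. Gapdh had 44 such copies, Pgk1 and Eno1 had 4 each, Pgam1 had 2, and Gpi1, Tpi1 and Ldhb had 1 each. Exons make up 54.1% of the annotated gene body of Gapdh, 70.8% of that of Tpi1 and 43.2% of that of Eno1. The table also lists Eno1b, a near copy of Eno1, with the same identifier at 2.67 and at 0.02, and the former follows directly after Eno1. No copy was found for Eno3 or Pkm. Activity is given per mappable base, and the part of the copies in any level was not tested.

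The members lie on 14 chromosomes, 7 of them on chromosome 6, 6 on chromosome 11 and 4 on the X chromosome. On chromosome 6, Eno2 (124710071 to 124719691), Tpi1 (124760604 to 124764314) and Gapdh (125111871 to 125116485) lie on the same strand near each other, with activities of 1.2, 3.54 and 3.81. Across the 37 members, Spearman's rank correlation of activity with gene length was -0.16, beside -0.04 over 12883 active genes with an annotated length. Genes are not independent replicates, and this relation was weak.

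Promoter windows were found for 35 of the 37 members, all but Slc2a3 and Slc2a4, with 54 windows in all, and windows of the same gene can overlap. The ratio of observed to expected CpG, a measure of how far a promoter has kept its CpG sites, was at least 0.6 in 12 of 14 windows of the general isozymes of the 9 pairs and in 3 of 15 windows of the muscle isozymes, beside 52.0% of the 18750 windows of all genes and 65.1% of those of active genes. Of the 15 muscle windows, Pfkm and Pfkfb1 supplied 4 each. Counted by gene, with the window of highest ratio standing for a gene, all 9 general genes and 3 of 8 muscle genes (Hk2, Ldha and Pfkfb1) reached 0.6. This choice favours genes with several windows. The Eno1 window shown above had 0.58, and the remaining windows of Pfkfb1 had 0.0665 to 0.123. No share of all genes was counted in this way, and windows were not matched to the entry that gave the activity. The muscle genes Pgam2 and Pygm had ratios of 0.0469 and 0.157, and their activities were 0.12 and 0.39. Eno3 had a ratio of 0.129 with the highest activity of all members, so a low CpG content went with low as well as high activity.

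**Figure D5:**
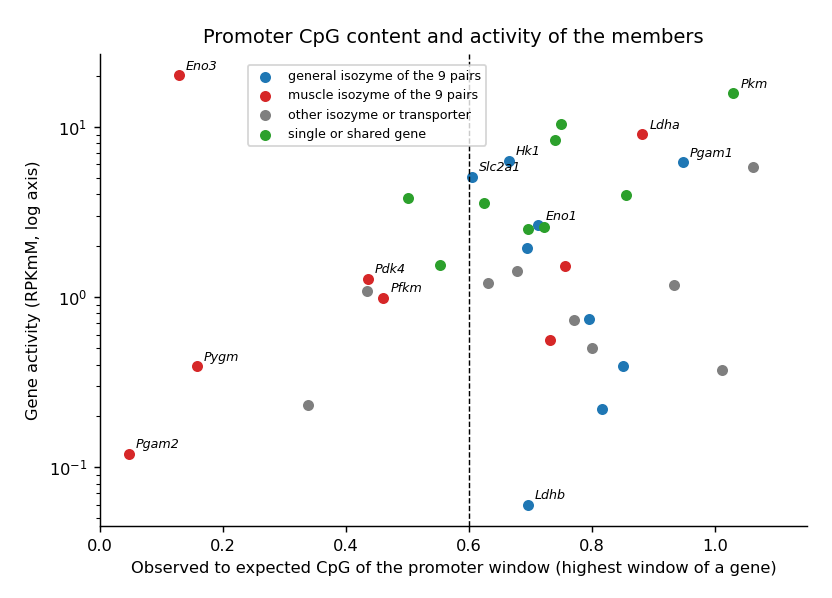
Activity (RPKmM, log axis) against the ratio of observed to expected CpG in the promoter window for the 35 members with a window, each gene by its window of highest ratio, with 0.6 marked by a dashed line. All 9 general isozymes lie to the right of the line, the muscle isozymes lie on either side, and Eno3 is at the upper left.

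Motifs were counted in the same windows on both strands. An E-box, CANNTG, occurred in 13 of 15 muscle windows and 7 of 14 general windows, beside 68.4% of all windows and 64.7% of those of active genes. These counts are of windows and not of genes, and Pfkm and Pfkfb1 supplied 4 muscle windows each. By gene, an E-box was absent from every window of Hk2 among the muscle genes with a window. Among the general genes it was absent from Slc2a1, Pgam1, Pygb and Ldhb. The form CAGCTG, which MyoD prefers, occurred in 4 of 15 muscle windows (Eno3, Pgam2, Pygm and Pfkfb1) and in none of the 14 general windows, beside 16.8% of all and 15.9% of those of active genes. The GC box GGGCGG occurred in 3 of 15 and 7 of 14, beside 50.4% of all and 60.1% of those of active genes. The muscle genes with a GC box were Hk2, Ldha and Pfkfb1, and the general genes were Slc2a1, Pfkl, Pgam1, Eno1 and Pfkfb3. ACGTG, the core of the hypoxia response element, which is also part of the E-box CACGTG, was found in 24 of the 54 member windows, beside 22.3% of all windows and 24.5% of those of active genes. The related core GCGTG was found in 29 of 54 (53.7%), beside 42.0% of all and 48.7% of those of active genes. TATAAA occurred in 3 of 54, beside 9.91% of all and 7.45% of those of active genes. Of the 2 windows of Ldha, the one richer in CpG held 5 matches to ACGTG, the most of any member. Such matches describe letters in a window and not bound sites.

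A further list held isozymes known mostly from liver, testis or other tissues, with enzymes of glucose production and Fbp2, the muscle form of fructose bisphosphatase. Of its 17 genes in the table, 14 were inactive, among them Pklr, Pygl, Gys2, G6pc, Pck1 and Fbp2. The 3 active ones were Eno4 at 0.02 and Hk3 and Hkdc1 at 0.01, all below every member. Hkdc1 lies 3229 bases upstream of Hk1 on the same strand.

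Pathways that branch from glycolysis were mostly active. All 9 genes of pyruvate entry and the pyruvate dehydrogenase complex were active, with a median of 1.56, led by Dld at 11.04, Pdhb at 6.68 and Dlat at 2.15, subunits of the same complex as Pdha1. All 7 genes of the pentose phosphate pathway, which makes NADPH and ribose, were active with a median of 1.2, led by Pgd at 3.94, Rpe at 3.76 and Tkt at 3.65. Of 13 further genes of glycogen metabolism, 12 were active with a median of 1.31, among them Gsk3b at 2.83 and Pgm1 at 2.48, and Ppp1r3c was inactive. Each of these medians lay above the 0.87 of all active genes.

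The label of the cells was checked against marker genes. All 8 myoblast markers in the table were active, beside 68.7% of all gene symbols. They were led by Vim at 146, Des at 72.5 and Itga7 at 13.3, with Myod1 at 2.39. Pax7 at 0.55 and Msc at 0.82 lay below the median of all active genes, 0.87. All 15 markers of differentiated muscle were active as well, with a median of 0.83, beside 0.87 over all active genes. They were led by Acta1 at 6.85, Myh3 at 5.28 and Mylpf at 5.18, with Myog at 2.39. Of the 15, 6 lay below the lower quartile of active genes and 2 below 0.1, Myh2 at 0.01 and Casq1 at 0.09. The muscle creatine kinase Ckm was at 0.2 and Mb, myoglobin, at 0.13. Of 9 markers of other cell types, 7 were inactive, namely Ptprc, Cdh5, Epcam, Alb, Adipoq, Col2a1 and Krt18, while Tubb3 had 6.01 and Pecam1 0.01. Genes of differentiated muscle were thus active by call beside the muscle isozymes, at levels from 0.01 to 6.85. Their part in the levels of Eno3, Pgam2 or Slc2a4 was not tested. In a pooled culture, few cells with many polymerases on a gene and many cells with few cannot be told apart.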

How the data were processed

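The authors deposited a single table of gene activities in RPKmM, an RPKM over mappable bases, for C2C12 myoblasts. It holds the word Inactive where a gene was not significantly above gene deserts. To make it, the authors aligned the GRO-seq reads with Bowtie2 (mm9), shortened reads that failed from the 3′ end and aligned them again. Unique alignments with a mapping quality of at least 40 were kept, reads in rRNA and tRNA repeats were dropped, both libraries were combined, RefSeq genes of at least 2 kb were measured, and values were rounded to 2 decimals. CASAVA 1.8 is named in the submitters' processing notes. Pooling hides variation between libraries, and read counts are not in the table.

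The highest active entry stood for a gene. Ratios carry a rounding range of 0.005 on either value, and log2 differences used a pseudocount of 0.01. No test was run, as the table holds 1 pooled value per entry and none per replicate. All members are named, with the 3 highest genes of each further list and any inactive marker. Further genes were added after their values were seen. Of the markers these were Myod1, Pax7, Msc, Myog, Ckm, Mb, Myh2, Casq1 and the active genes of other markers. The rest were the neighbours, Eno1b, the inactive enzymes of other tissues, Phkg1, Arnt, Epas1, Egln1 and Egln3. Members and lists were chosen with earlier results of these data known. Gene positions came from GENCODE vM1 on NCBIM37 (mm9), with Pkm found by its synonym. Promoter windows of genes of the table came from RefSeq (GRCm38.p6), 250 bases before to 50 after a start. Transcripts were aligned to mm9 with minimap2 2.31. Calculations were tested on simulated data and used Python 3.11.15, numpy 2.4.6, pandas 2.3.3, scipy 1.17.1 and matplotlib 3.10.9. Alternatives were the median or lowest entry of a gene, every entry, activities of at least 0.01 or 0.1, pseudocounts of 0.1 and 1, and 9 pairs in place of 6. Protein sequences were not used here, and some genes of the further lists are not reported here by name.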

Additional observations from a re-analysis of the deposited data

How the results depend on the processing

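The number of active members was 37 by gene, 52 by entry and 34 with an activity of at least 0.1. The median of the members ranged from 1.35 to 1.52 RPKmM and that of all active genes from 0.835 to 1.21 over the alternatives, and the general isozyme was higher in 5 pairs under each alternative, of 6 pairs or of 9. A value was taken as moved where it changed by over 1.5 times. With 9 pairs in place of 6, the median log2 difference of general minus muscle moved from 1.51 to 0.91, since the 3 added pairs have the muscle form higher; under the other alternatives it lay between 1.05 and 1.46. For single pairs, 28 of 36 alternative values stayed within 1.5 times and 8 moved, and none changed sign. The 8 were hexokinase with the lowest entry of Hk1, and pairs with a gene of low activity under larger pseudocounts, as glucose transporters at 2.52 and lactate dehydrogenase at -3.24 with a pseudocount of 1. No paired analysis was possible because the table holds 1 pooled value per entry, and for the same reason no replicate could be left out. The table gives no read counts, and the counting error, which weighs most on low members such as Slc2a3, Slc2a4 and Ldhb, was not computed.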

Other observations

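Genes around the hypoxia response and lactate export that the pathway does not include were also transcribed. Of 10 such genes, all were active, with a median of 1.5 RPKmM. Bsg, basigin, the partner protein that carries monocarboxylate transporters to the cell surface, had 25.16, above each of the 37 members and above its partners Slc16a1 at 5.82 and Slc16a3 at 1.18. Adpgk, a glucokinase that uses ADP, had 3.59. Egln2, a prolyl hydroxylase that marks hypoxia-inducible factors for removal, had 2.46, and its relatives Egln1 and Egln3 had 0.7 and 0.64. Arnt, the partner subunit of Hif1a, had 2.11, close to the 2.52 of Hif1a, while Epas1, the alternative subunit of endothelium and other tissues, had 0.01. These are single pooled values and were not tested.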
